A study of Homo sapiens with 20 samples.

Results

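OVCAR-4 is a human cell line established from a high-grade serous adenocarcinoma of the ovary, and its baseline transcriptome is described here from the 2 libraries of cells that received only the DMSO vehicle, out of 20 libraries in the series. The libraries were taken by their labels, line OVCAR-4 and treatment DMSO. They were compared with the 8 DMSO libraries of the other 4 lines, which are COLO320DM and RKO (both colorectal), ABC-1 (lung) and UO-31 (kidney). The series exposed all 5 lines to 1 µM of the tankyrase inhibitor G007-LK or to 0.01% DMSO for 24 hours, with 2 libraries labelled as biological replicates in each group. OVCAR-4, COLO320DM and UO-31 were grown in RPMI-1640 and ABC-1 and RKO in EMEM. Medium and line therefore cannot be told apart in the contrasts with ABC-1 and RKO, which also enter the mean of the 4 lines. Each tissue is represented by a single line, and the p-values below therefore measure the spread between libraries of a line and not between ovarian and other tumours.

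High-grade serous carcinoma is the most common form of ovarian cancer and is thought to arise largely from secretory cells of the fallopian tube. Those cells derive from the Mullerian duct of the embryo, and the transcription factors PAX8, SOX17, EMX2 and MECOM belong to that lineage. The tumours keep many features of a secretory epithelium, such as surface mucins, secreted protease inhibitors and simple keratins.

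Expression was read as RPKM, mapped reads scaled for transcript length and library size, so levels of different genes are stated per length. The RPKM of a library summed to between 895010 and 909187 in OVCAR-4 and to between 381878 and 514173 in the other lines. One read was worth 1.73 to 2.33 times more RPKM in the first OVCAR-4 library than in the libraries of the other lines, as the steps between the lowest values show. The median gene stood 0.85 higher in OVCAR-4 on the log2(RPKM + 0.5) scale, and 80.7% of the 14101 genes tested had a positive difference. Differences are therefore given after the libraries were rescaled by the median of gene-wise ratios, which brought this median to -0.0045, whereas RPKM are quoted as deposited. Correlation between the replicates of a line ranged from 0.997 to 0.999 across genes, which are not independent replicates.

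A gene was called above each (or below each) other line when OVCAR-4 differed by at least 2-fold from every one of the 4 lines in the same direction, with an adjusted p under 0.05 in each of the 4 limma contrasts. After rescaling, 669 genes were above each other line (4.74% of those tested) and 193 were below each (1.37%). Without rescaling the same rule gave 2464 genes above (17.5%) and 51 below (0.362%), and these contained all 669 and were all contained in the 193, respectively. Of the 14101 genes, 610 passed the filter of at least 1 RPKM on average in some line through OVCAR-4 alone. Of the 669, 313 were among these 610, so their entry favoured the call without fixing it. Against the mean of the 4 lines, 2375 genes were higher (16.8%) and 1501 lower (10.6%) after rescaling, compared with 6178 (43.8%) and 570 (4.04%) as deposited. UO-31 was the line nearest in level for 265 of the 669 genes (39.6%), followed by ABC-1 for 181, COLO320DM for 157 and RKO for 66.

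The genes farthest above all other lines included a phosphate transporter, several secreted proteins and proteases, a keratin and a WNT ligand. SLC34A2, a sodium-dependent phosphate transporter of the cell surface, measured 469 and 493 RPKM in the OVCAR-4 libraries against 0 to 0.352 RPKM in the 8 others. Its rescaled log2 difference from UO-31, the nearest line, was 8.44, with a largest adjusted p among the 4 limma contrasts of 4.14e-13. SLC34A2 had passed the filter through OVCAR-4 alone and was named for its distance, so this p is a description. MMP7, a secreted metalloproteinase, reached 754 and 813 RPKM and ranged from 0 to 1.25 elsewhere. The OVCAR-4 libraries lay far above the rest for both genes, and absence of overlap was a condition for naming a gene. WFDC2, a secreted protein used as a serum marker of ovarian carcinoma, measured 369.6 and 349 RPKM against 0 to 0.481. For the WNT ligand WNT7A, a regulator of Mullerian duct patterning, OVCAR-4 gave 299 and 311 RPKM and the other lines 0 to 0.371. Neither gene reached 0.5 RPKM in any other library.

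KRT7, a keratin of simple and ductal epithelia, was the most abundant of the 15 genes named by distance, with 3510.1 and 3589 RPKM. It was also detected in UO-31 (22.7 and 19.4 RPKM) and in ABC-1 (5.68 and 4.71), and the rescaled log2 difference from UO-31 was 6.53. NPTX2, a secreted pentraxin first known from neurons, had 286 and 297 RPKM in OVCAR-4 and 0 to 0.185 in the rest. The decoy receptor for interleukin-1, IL1R2, had 273 and 264 RPKM and ranged from 0 to 0.373 in the rest. SLC34A2, WFDC2, NPTX2, WNT7A and IL1R2 were thus all below 0.5 RPKM in the 8 other libraries.

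The remaining named genes repeated this arrangement at lower levels. The kallikrein proteases KLK10 (220.2 and 216 RPKM) and KLK6 (64.5 and 67) stayed under 0.5 RPKM in the 8 other libraries. The phosphatase inhibitor PPP1R14A (254 and 249 RPKM) did not exceed 1.41 RPKM elsewhere, and BMP7, a ligand of the BMP family, measured 136 and 143 RPKM against 0.053 to 1.01 elsewhere. LCN2, a secreted iron-siderophore binding protein, measured 103 and 109 RPKM in OVCAR-4, and the highest other value was in UO-31. C10orf99 and SFTA2, which encode small secreted proteins, measured 49.2 and 47.3 RPKM and 64 and 64.6 RPKM. Over the 15 genes, the distance from the nearest line ran from 5.50 to 8.44 on the rescaled log2 scale, and the largest limma adjusted p was 1.64e-10. The 15 were picked by this distance among called genes. Several, such as WFDC2, WNT7A, BMP7, KLK6 and KLK10, had passed the filter through OVCAR-4 alone, so these p-values are descriptions.

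**Figure D1:**
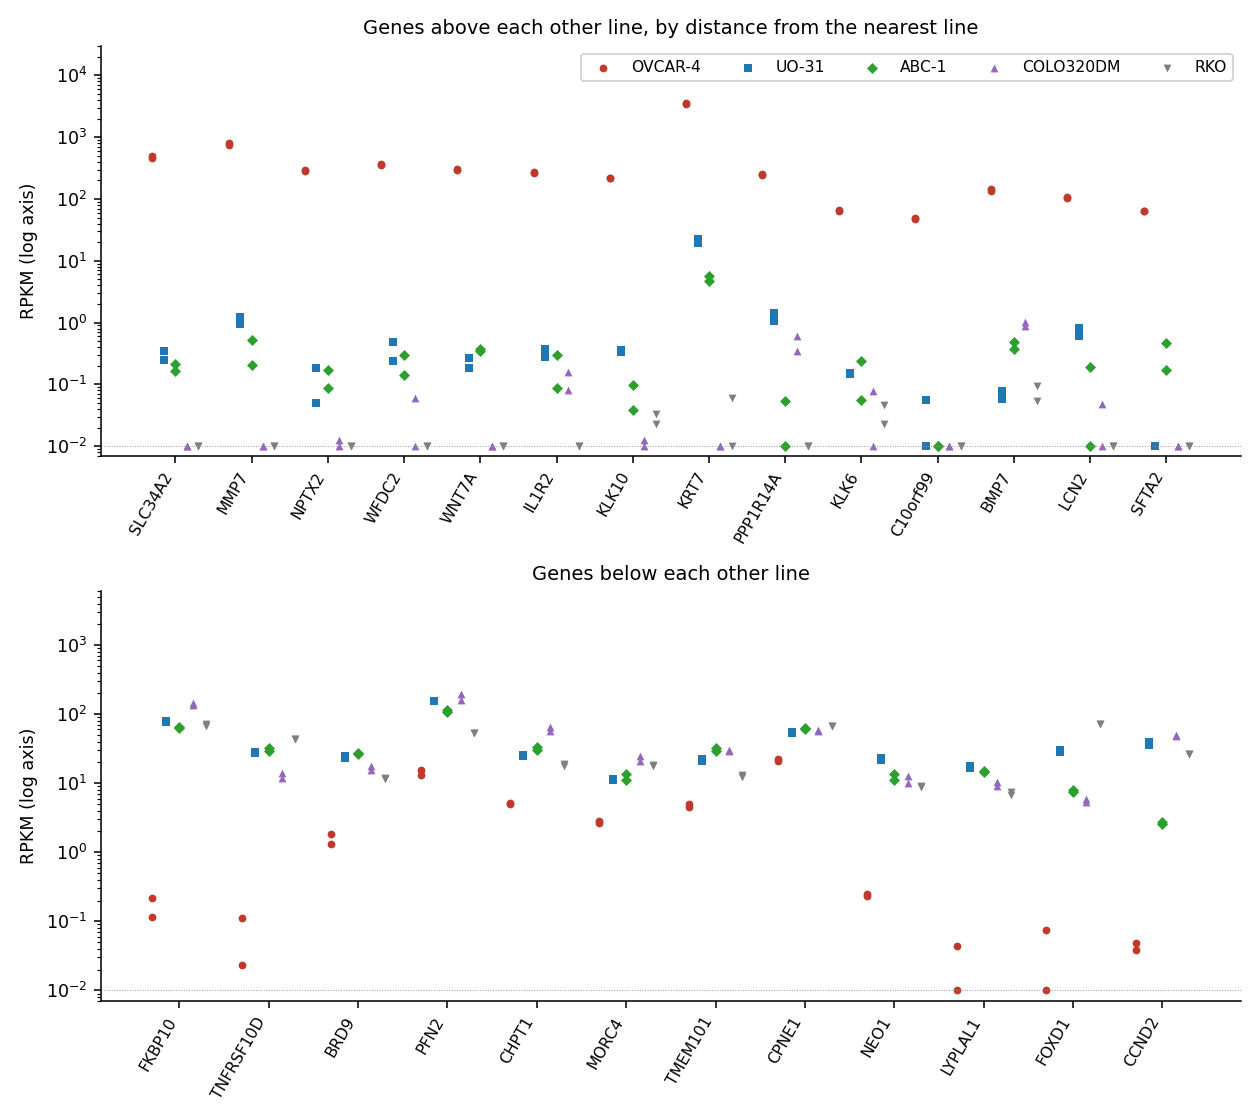
RPKM as deposited, on a log axis, in each of the 10 DMSO libraries for the genes named above and below each other line, with 1 point per library, colour and shape by line, and values under 0.01 drawn at the dotted line. OVCAR-4 lies above all other points in the upper panel, where KRT7 is highest at 3589 RPKM, and below all other points in the lower panel, whose last 4 genes are described for the off class and the cyclin list.

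Far fewer genes were low in OVCAR-4 alone, and the low group was headed by genes that the 4 other lines all expressed. FKBP10, a collagen-folding prolyl isomerase of the endoplasmic reticulum, measured 0.22 and 0.116 RPKM in OVCAR-4 and 63.9 to 147 RPKM elsewhere. Its rescaled log2 difference from ABC-1 was -6.99 (limma, largest adjusted p 4.14e-13). TNFRSF10D, a decoy receptor for the death ligand TRAIL, gave 0.111 and 0.0235 RPKM against 11.9 to 44.4. The naming rule asked for an absence of overlap between libraries and for the same call on the deposited values. Neither is therefore separate support for these genes.

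The rule for genes below each line, which also asked for at least 10 RPKM in the nearest line and a call on the deposited values, left 8 genes. BRD9, a bromodomain subunit of a SWI/SNF complex, had 1.33 and 1.81 RPKM where the others had 11.7 to 27.2. PFN2, an actin-binding profilin, had 13 and 15.5 RPKM where the others had 53.2 to 196. CHPT1, which makes phosphatidylcholine, MORC4, the membrane protein gene TMEM101 and the calcium-dependent phospholipid-binding CPNE1 were the others. Their rescaled log2 differences from the nearest line were -2.69, -2.54, -2.27 and -2.11. The largest limma adjusted p over the 8 genes was 1.74e-10, a description, since the 8 were picked among called genes. TMEM101 was not called in the G007-LK libraries.

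Off genes, defined without a test as under 0.5 RPKM in both OVCAR-4 libraries and at least 5 RPKM in all 8 others, numbered 5, and the same 5 were found after rescaling. Beside FKBP10 and TNFRSF10D they were NEO1, LYPLAL1 and FOXD1. NEO1, a receptor for repulsive guidance molecules and netrins that also serves BMP signalling, measured 0.236 and 0.249 RPKM in OVCAR-4 and 8.85 to 23.1 elsewhere. LYPLAL1, a lysophospholipase-like enzyme, was 0 and 0.0444 RPKM against 6.68 to 17.7. FOXD1, a forkhead factor of the kidney stroma, was 0 and 0.074 RPKM against 5.43 to 73, with the highest values in RKO.

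The mirror class, at least 5 RPKM in both OVCAR-4 libraries and under 0.5 RPKM in all 8 others, held 85 genes as deposited and 47 after rescaling, all of the 47 among the 85. SLC34A2, WNT7A, NPTX2, IL1R2, KLK10, KLK6 and C10orf99 led it by level. They were followed by PI3, a secreted elastase inhibitor, with 34.2 and 39.2 RPKM against 0 to 0.0796 elsewhere. CAPN13, a calpain protease, gave 34.8 and 37.4 RPKM, and CILP, a matrix protein of cartilage, gave 35 and 35.5. SCGB2A1, a secretoglobin of secretory epithelia chosen after its values were seen, measured 20.4 and 21 RPKM and was listed at 0 in all 8 other libraries. For comparison, the same rescaled rule gave 96 genes on in UO-31 alone, 59 in COLO320DM, 47 in ABC-1 and 21 in RKO.

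The serous and Mullerian list (12 genes) concerns the tumour type of the line. The filter was passed by 9 genes and 3 were too low in all lines. Of the 9, SOX17, EMX2, MECOM, MUC16 and WFDC2 were above each other line, beside 4.74% of all genes tested. MUC16 and WFDC2 had entered through OVCAR-4 alone, so the count is given as a description. Higher than the mean of the lines were 7 of the 9, beside 16.8% of all genes, and none was lower. SOX17, an endodermal and Mullerian transcription factor, measured 195 and 193 RPKM, with 11.1 and 10.1 in UO-31 and at most 0.0681 in the rest. MECOM, a zinc-finger transcription factor whose locus is often gained in these tumours, had 54.4 and 54.2 RPKM against 1.99 to 7.38, a rescaled log2 difference from UO-31 of 2.01 (limma, largest adjusted p 1.41e-09). EMX2, a homeobox gene of the urogenital tract, had 51.6 and 50.7 RPKM, followed by COLO320DM with 9.8 and 10.6. OVCAR-4 did not overlap the other lines for any of the 3 factors.

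MUC16, the mucin that carries a widely used ovarian serum antigen, measured 7.27 and 8.57 RPKM in OVCAR-4. It reached 0.777 and 0.591 RPKM in ABC-1 and was at most 0.00521 RPKM in the other 3 lines. PAX8 did not separate OVCAR-4 from the kidney line: it gave 81.2 and 81.3 RPKM in OVCAR-4 and 63.9 and 66.1 in UO-31, and the log2 difference after rescaling was -0.51 (limma adjusted p 6.67e-04). In the other 3 lines PAX8 did not exceed 0.783 RPKM. MSLN, the mesothelin gene, was much higher in ABC-1 (133 and 134 RPKM) than in OVCAR-4 (4.36 and 5.03). The list was not complete, since WT1 (0.0524 and 0.138 RPKM), ESR1 (0.172 and 0.221), PGR (0.0061 and 0.0258) and OVGP1 (0.141 and 0.112) were all under 0.5 RPKM in OVCAR-4. WT1 and ESR1, the oestrogen receptor gene, are commonly expressed in serous carcinoma, so this line was low in the RNA of common markers of its tumour type.

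**Figure D2:**
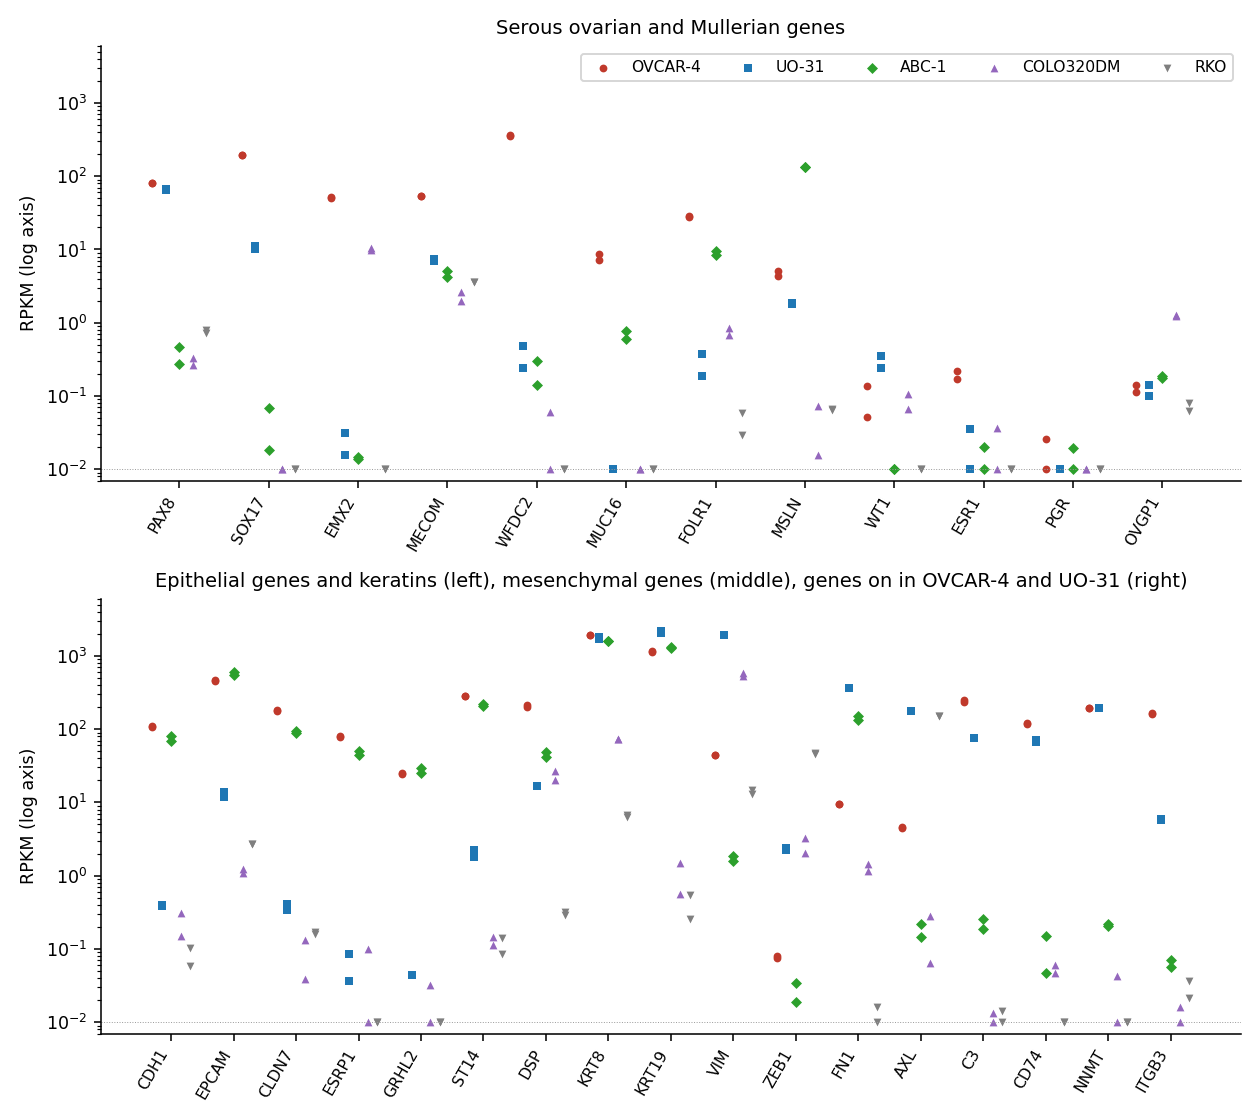
RPKM as deposited, on a log axis, in the 10 DMSO libraries for the serous and Mullerian list (upper panel) and for selected epithelial, mesenchymal and shared genes (lower panel), with 1 point per library and values under 0.01 drawn at the dotted line. OVCAR-4 is alone at the top for SOX17, WFDC2 and MECOM, lies near UO-31 for PAX8 and NNMT and near ABC-1 for CDH1 and GRHL2 on these deposited values (rescaled log2 differences -0.51, -0.83, -0.44 and -1.08), and has WT1 at 0.0524 and 0.138 RPKM.

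Of 33 markers of other cell types that an ovarian sample can hold, 17 were under 0.5 RPKM in both OVCAR-4 libraries and others were well expressed. PTPRC, the pan-leukocyte antigen, measured 0.117 and 0.0619 RPKM, and CD3E stayed under 0.5 RPKM. The summed level of the 8 blood and endothelial genes was 28.7 to 28.9 RPKM in OVCAR-4 and 1.78 to 343.9 RPKM in the other libraries, and CD68 made most of it (21.8 and 21.4 RPKM). PECAM1, an endothelial adhesion molecule, was the 1 member of 6 tested called above each line, with 1.35 and 1.14 RPKM, and that call was lost under quantile normalization. PECAM1 had passed the filter through OVCAR-4 alone. For this and the lists that follow, 4.74% of all genes were above each line, 16.8% higher than the mean and 10.6% lower. Granulosa and stromal genes gave 0 of 5 above each, but 3 of the 5 were higher than the mean of the lines: AMH, the anti-Mullerian hormone (5.01 and 5.37 RPKM), LUM, a matrix proteoglycan (5 and 5.8), and ACTA2, smooth muscle actin (35.4 and 34.1). INHA was lower than the mean. In the same list CYP19A1, FSHR, STAR, NR5A1, DCN and PDGFRA were all under 0.5 RPKM, and the summed level was 46.6 to 46.9 RPKM against 1.08 to 56.9. Of the ciliated-cell list 1 of 5 was above each, CAPS, a calcium-binding protein, with 61.8 and 63.9 RPKM, while FOXJ1, the master factor of ciliated cells, stayed under 0.5 RPKM. The ciliated list summed to 65.6 to 68.0 RPKM in OVCAR-4 and to 1.80 to 12.3 elsewhere. The mesothelial list gave 1 of 4, UPK3B, with 98 and 103 RPKM against 0.151 to 23.4, and summed to 106 to 112 RPKM against 0.398 to 216. The part of these markers in the other results was not tested.

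Kallikreins are secreted serine proteases encoded side by side on the long arm of chromosome 19, and several are shed by ovarian carcinomas. The kallikrein list held 15 genes, of which 10 passed the filter, 9 of them through OVCAR-4 alone. The 8 called above each other line were all among these 9, so their number is a description of which members OVCAR-4 expressed and not a share to set against the 4.74% of all genes. The 5 that did not pass were under 0.5 RPKM in OVCAR-4. One further member, KLK14, was higher than the mean of the lines but not than ABC-1 by 2-fold. The exception was KLK11, which measured 0.555 and 0.0652 RPKM in OVCAR-4 and 37.1 and 34.7 in UO-31. The summed level of the list was 356 to 358 RPKM in OVCAR-4 and 0.174 to 38.2 RPKM in the others.

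On GRCh37, KLK1, KLK4, KLK5, KLK6, KLK7, KLK8 and KLK10 followed one another without another tested gene between them, from 51322402 to 51523431 on chromosome 19, and all 7 were above each other line. KLK2, KLK3, KLK9 and KLK15 of the same cluster did not pass the filter and stayed under 0.5 RPKM in OVCAR-4. Levels within the run were uneven. KLK1 (2.18 and 1.63 RPKM) and KLK4 (1.83 and 1.43) lay at the low end. KLK7 (10.1 and 11.5 RPKM), KLK5 (25.1 and 26.4) and KLK8 (26.5 and 27.7) were intermediate, KLK6 was higher and KLK10 was the most abundant. KLK13, beyond KLK11, was also above each line, with 2.46 and 2.27 RPKM. Because these genes arose by duplication, reads of similar copies could be assigned to the wrong member.

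The start regions of this run are shown because its members were high together in 1 line. RefSeq windows, 250 bases before to 50 bases after a gene start on the coding strand, were found for 5 of the 7 genes. Where a gene had several starts, the first in the table was taken. Capitals mark TATAA, the core of a TATA box, and CACCTG, an E-box string read as CAGGTG on the other strand, each searched on both strands.
KLK5 (GRCh38.p14, chr19:50952989-50953288, minus strand): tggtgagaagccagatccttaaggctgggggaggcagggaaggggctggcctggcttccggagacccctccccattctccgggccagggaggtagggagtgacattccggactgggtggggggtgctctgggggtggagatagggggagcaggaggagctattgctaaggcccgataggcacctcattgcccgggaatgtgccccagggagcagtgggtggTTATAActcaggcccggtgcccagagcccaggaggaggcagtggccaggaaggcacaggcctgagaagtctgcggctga
KLK7 (GRCh38.p14, chr19:50983868-50984167, minus strand): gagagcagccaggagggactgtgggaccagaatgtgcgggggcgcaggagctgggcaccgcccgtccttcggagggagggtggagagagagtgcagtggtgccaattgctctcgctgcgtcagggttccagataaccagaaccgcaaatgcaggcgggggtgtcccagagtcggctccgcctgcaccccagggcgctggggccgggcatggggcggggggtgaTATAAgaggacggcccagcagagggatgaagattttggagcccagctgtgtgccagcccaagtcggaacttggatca
KLK6 (GRCh38.p14, chr19:50969542-50969841, minus strand): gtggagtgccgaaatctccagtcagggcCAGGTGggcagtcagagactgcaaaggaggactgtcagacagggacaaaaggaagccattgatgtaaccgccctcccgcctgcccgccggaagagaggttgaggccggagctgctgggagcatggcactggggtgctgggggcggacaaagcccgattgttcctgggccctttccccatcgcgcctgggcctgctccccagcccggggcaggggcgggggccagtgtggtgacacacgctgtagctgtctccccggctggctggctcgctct
KLK10 (GRCh38.p14, chr19:51019812-51020111, minus strand): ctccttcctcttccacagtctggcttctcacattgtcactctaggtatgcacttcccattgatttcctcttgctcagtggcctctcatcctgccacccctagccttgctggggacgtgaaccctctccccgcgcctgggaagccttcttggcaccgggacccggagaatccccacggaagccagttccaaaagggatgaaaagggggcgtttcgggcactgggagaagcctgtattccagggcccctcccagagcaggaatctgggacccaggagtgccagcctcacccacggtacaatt
TATAA occurred in 2 of the 5 windows, those of KLK5 and KLK7, where it began 28 and 27 bases before the start, and in 20.4% of the 35116 windows of the table. CACCTG occurred in 2 of the 5, those of KLK6 and KLK4, and in 20.6% of all windows. The window of KLK10, the most abundant member, held neither string. These matches describe letters only.

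Adhesion and other epithelial genes were shared by OVCAR-4 and ABC-1. Of 25 epithelial genes, all tested, 24 were higher than the mean of the 4 lines and none was lower, with a median rescaled log2 difference of 3.37 beside -0.0045 over all genes, but only DSP, the desmosomal plaque protein desmoplakin, was above each line. Against ABC-1 the list's median rescaled log2 difference was -1.004, with 1 gene called higher and 13 lower, whereas against COLO320DM, UO-31 and RKO the medians were 5.83, 3.23 and 6.54, with 22 or 23 genes called higher. Thus for the calls against the mean the contrast came from 3 of the 4 lines.

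CDH1, the adherens junction protein E-cadherin, measured 106 and 111 RPKM in OVCAR-4 and 69.2 and 80.8 in ABC-1, and the rescaled log2 difference turned to -0.44 (limma adjusted p 0.00432). It ranged from 0.0581 to 0.402 RPKM in the other 3 lines. For GRHL2, a transcription factor that maintains epithelial identity, OVCAR-4 gave 24.1 and 25.5 RPKM, ABC-1 25.1 and 29.3 and the remaining lines 0 to 0.044, with a rescaled log2 difference from ABC-1 of -1.08. The splicing regulator ESRP1, the tight junction protein CLDN7 and the serine protease ST14 were likewise high in OVCAR-4 and ABC-1, with rescaled log2 differences between them of -0.22, 0.02 and -0.58. DSP measured 201 and 212 RPKM against 0.291 to 48.9, a rescaled log2 difference from ABC-1 of 1.20 (limma, largest adjusted p 5.64e-08).

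Among 15 keratins tested, 5 were above each line: KRT7, KRT17, KRT23, KRT5 and KRT6A, beside 4.74% of all genes. KRT5 and KRT6A passed the filter through OVCAR-4 alone. KRT17, induced in basal and wounded epithelium, measured 459 and 469 RPKM, with ABC-1 next at 27 and 25.9. KRT5, a keratin of basal cells, measured 8.26 and 8.11 RPKM and did not exceed 0.0394 RPKM elsewhere. The simple keratins KRT8, KRT18 and KRT19 were abundant in OVCAR-4, ABC-1 and UO-31 alike, and the rescaled log2 differences of OVCAR-4 from UO-31 were -0.72, -0.48 and -1.73. KRT4 was present at 295 and 313 RPKM in ABC-1 and at 0.333 and 0.196 in OVCAR-4. Reads of KRT6A may be shared with its near copy KRT6B (0.0682 and 0.252 RPKM).

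Mesenchymal genes were mixed, with 7 higher than the mean, 9 lower and 8 in neither class of 24 tested. Over all genes 16.8% were higher and 10.6% lower. Their median rescaled difference was -0.20, and it was 0.34 on the deposited values, so no direction is given for the list. VIM, the intermediate filament vimentin, measured 44.9 and 44.8 RPKM in OVCAR-4, well under UO-31 (1927 and 1925) and COLO320DM (539.7 and 579.6) but above ABC-1 (1.56 and 1.87). ZEB1, a repressor of epithelial genes, was 0.076 and 0.0803 RPKM in OVCAR-4 and 45.7 and 47.9 in RKO. The collagen VI chain COL6A2 was above each line with 29.5 and 29.8 RPKM, as was COL1A2 with 1.92 and 1.82. COL1A2 had passed the filter through OVCAR-4 alone.

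**Figure D3:**
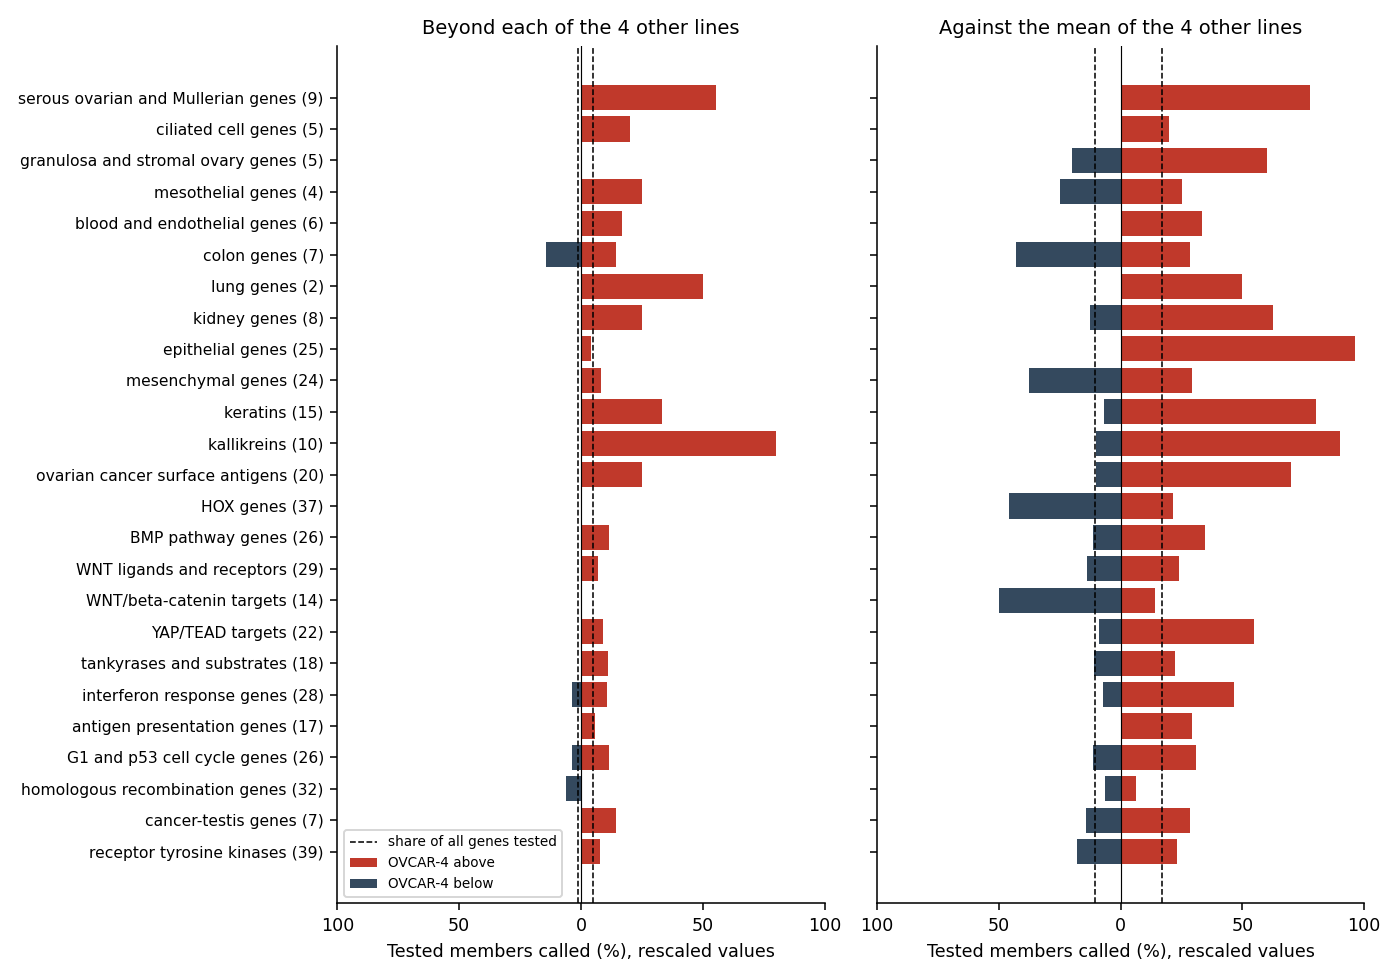
Percent of the tested members of each list that were called above (right of 0) or below (left of 0) each of the 4 other lines, and higher or lower than their mean, after rescaling, with the number tested in brackets and dashed lines at the share of all 14101 genes. Members too low to be tested are left out of the shares. For members that passed only through OVCAR-4, such as 9 of the 10 kallikreins, this entry favoured a call above each line. Epithelial genes extend right against the mean (24 of 25) but not beyond each line (1 of 25).

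Genes shared with 1 other line only were counted with the on and off thresholds. UO-31 shared the most, 81 genes as deposited and 60 after rescaling, and ABC-1 shared 51 and 42. COLO320DM shared 10 and 6, and RKO 3 and 2. The highest of those shared with ABC-1 were GJB2, a gap junction channel with 206 and 205 RPKM in OVCAR-4 and 12 and 14.6 in ABC-1, then CLDN7, VTCN1 and CDH1. ESRP1, the GTPase RAB25 and the cadherin CDH3 were also among the first 10. The examples shared with UO-31 below were chosen after their values were seen.

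C3, the central complement component, measured 238 and 251 RPKM in OVCAR-4 and 76.4 and 75.5 in UO-31 but at most 0.26 RPKM in the other 3 lines. CD74, the class II invariant chain, gave 118 and 123 RPKM in OVCAR-4 and 71.5 and 66.7 in UO-31, a rescaled log2 difference of -0.03 (limma adjusted p 0.726). NNMT, which methylates nicotinamide, gave 196 and 194 RPKM in OVCAR-4 and 196 and 192 in UO-31, a rescaled log2 difference of -0.83. The chemokine genes CCL2 (51.8 and 56.3 RPKM in OVCAR-4) and CXCL1 (47.6 and 51.7) belonged to the same class. EDN2, an endothelin peptide, and the integrin ITGB3 were shared in this sense yet far higher in OVCAR-4, with 410.4 and 442 RPKM against 8.42 in both for EDN2 and 159 and 167 against 5.97 and 5.7 for ITGB3.

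Of 28 interferon response genes tested, 13 were higher than the mean of the lines and 2 lower, beside 16.8% and 10.6% of all genes. GBP1, GBP2 and XAF1 were above each line and HERC6 was below each, beside 4.74% and 1.37%. XAF1 had passed the filter through OVCAR-4 alone, and its call was lost under quantile normalization. GBP1, an interferon-induced GTPase, measured 70.2 and 71.9 RPKM, with UO-31 next at 6.04 and 6.47. GBP2 of the same family measured 54 and 58.8 RPKM and UO-31 6.99 and 7.69. HERC6 had 2.04 and 2.32 RPKM against 3.3 to 5.1 and was not called on the deposited values. Among antigen presentation genes, 5 of 17 were higher than the mean and HLA-DMB alone was above each (2.31 and 2.92 RPKM), a call lost under quantile normalization. HLA-DMB had passed the filter through OVCAR-4 alone. HLA-DRA, a class II chain, was 0.0606 and 0.064 RPKM.

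Surface antigens studied as targets in ovarian cancer formed another list, and of 20 tested, 14 were higher than the mean and 5 were above each line, where 16.8% and 4.74% of all genes were called. SLC34A2, MUC16 and FOLH1 passed the filter through OVCAR-4 alone. Beside SLC34A2 and MUC16 these were CDH6, VTCN1 and FOLH1. CDH6, a cadherin of kidney and ovarian tumours, measured 98.4 and 99.3 RPKM, with UO-31 next at 5.32 and 4.53. VTCN1, an inhibitory B7-family ligand, measured 168 and 176 RPKM, with 38.3 and 43.2 in ABC-1. FOLR1, the folate receptor, was 27.4 and 28.3 RPKM and exceeded ABC-1 (8.37 and 9.52) by a rescaled log2 difference of 0.64, short of 2-fold. EPCAM and CLDN4 were lower than in ABC-1, with rescaled log2 differences of -1.31 and -1.24, and CLDN6 was 0.172 and 0.363 RPKM in OVCAR-4 against 292 and 329 in ABC-1.

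HOX genes encode positional information along the body axis and lie in 4 clusters. None of the 37 tested was above or below each line, while 8 were higher than the mean and 17 lower, beside 16.8% and 10.6% of all genes. The 8 higher genes were HOXB2 to HOXB9, that is every tested HOXB gene except HOXB13. HOXB9 measured 36.1 and 38 RPKM in OVCAR-4 and 0.0158 to 15.6 elsewhere, and HOXB2 measured 32.4 in both against 0 to 14.6. The rescaled log2 differences from UO-31 were 0.43 and 0.32, under 2-fold. On the deposited values 6 HOXB genes were above each line. Summed over the 9 tested HOXB genes as deposited, OVCAR-4 held 165 RPKM, UO-31 70.9, RKO 47.4, COLO320DM 18.9 and ABC-1 4.11. These sums were not rescaled, and the rescaling factors were 1.68 and 1.72 in OVCAR-4 and 0.957 and 0.94 in UO-31.

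The HOXD cluster was at or near 0 in OVCAR-4. Of 8 HOXD genes tested, 7 were listed at 0 in both OVCAR-4 libraries and HOXD4 had 0 and 0.0647 RPKM, and 7 of the 8 were lower than the mean of the lines. HOXD13, the most distal gene, measured 31.7 and 36.1 RPKM in COLO320DM, and the cluster summed to 74.6 RPKM there but to 1.08 in UO-31 and 1.83 in ABC-1, so UO-31 and ABC-1 were low in HOXD as well. HOXA and HOXC genes had 4 of 11 and 5 of 9 lower than the mean and none higher, with no gene above 2.48 RPKM in OVCAR-4. Over all genes 10.6% were lower. Deposited HOXA sums were 12.7 RPKM in OVCAR-4, 10.6 in COLO320DM, 10.3 in ABC-1, 84.7 in UO-31 and 29.6 in RKO. For HOXC they were 9.09, 80.3, 6.76, 31 and 19.8 RPKM in the same order, so OVCAR-4 was not the lowest line in either. On the deposited values 8 of the 37 HOX genes were higher than the mean and 12 lower.

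**Figure D4:**
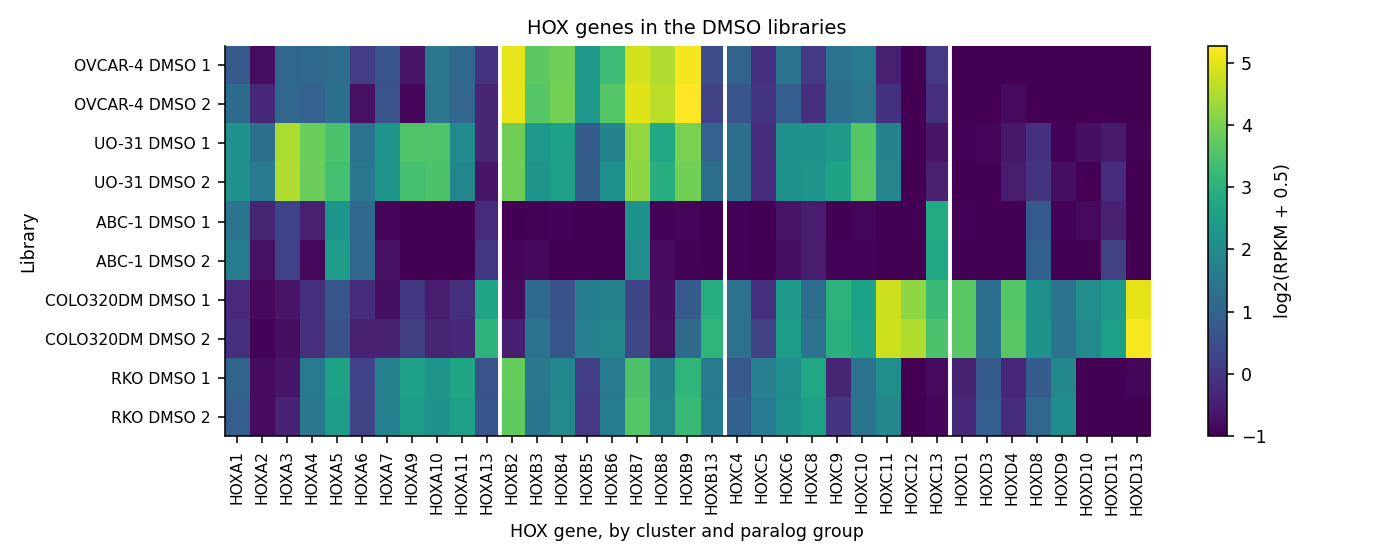
Level of the 37 tested HOX genes, log2(RPKM + 0.5) of the deposited values, in the 10 DMSO libraries (rows, 2 per line), with white lines between the HOXA, HOXB, HOXC and HOXD clusters. OVCAR-4 is brightest over HOXB2 to HOXB9, up to 38.0 RPKM for HOXB9, and dark over HOXD, where COLO320DM is bright.

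Cell cycle genes of the G1 phase gave 3 of 26 above each line and 1 below each, where 4.74% and 1.37% of all genes were called. CCNE1, cyclin E1, which drives entry into S phase and is often amplified in serous carcinoma, measured 166 and 174 RPKM in OVCAR-4 against 2.77 to 20.6 in the others. Its rescaled log2 difference from RKO was 2.02 (limma, largest adjusted p 2.22e-08). CDKN2A, which encodes a CDK inhibitor, was 211 and 208 RPKM, with ABC-1 next at 47.7 and 39.1, and CDKN2D was also above each. CCND2, cyclin D2, was the member below each, at 0.0487 and 0.0386 RPKM against 2.56 to 50.3.

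MYC, a growth-promoting transcription factor, and CCND1, cyclin D1, were not 2-fold beyond each line. MYC measured 81.9 and 78.3 RPKM in OVCAR-4, 1515 and 1655 in COLO320DM, 159 and 155 in RKO, 70.2 and 67.9 in UO-31 and 15 and 17 in ABC-1. The rescaled log2 difference of OVCAR-4 was 1.33 from ABC-1 and -0.62 from UO-31 (limma adjusted p 2.59e-07 for the latter), although the deposited RPKM were higher than in UO-31. CCND1 was 187 and 191 RPKM in OVCAR-4 and 135 and 133 in UO-31, a rescaled log2 difference of -0.34. The direction against UO-31 was opposite before rescaling for this gene too.

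CCNE1 lies at 30302898 to 30315219 on chromosome 19 (GRCh37). Its tested neighbours UQCRFS1, POP4, PLEKHF1, C19orf12 and URI1 had rescaled differences from the mean of the lines of 1.41, 1.27, 1.59, 0.83 and 1.19, all positive, beside 3.27 for CCNE1. UQCRFS1, a respiratory chain subunit, measured 559.7 and 568 RPKM against 94.5 to 129 and was above each line, as was POP4, an RNase P subunit. URI1, a prefoldin-like protein, had 91 and 92.8 RPKM against 17.8 to 28.4 and fell short of 2-fold from COLO320DM. The next tested gene, TSHZ3, was at -0.72. Beyond it, ZNF507, DPY19L3, PDCD5 and ANKRD27 were positive again, at 0.32, 0.48, 1.27 and 0.54, and PDCD5 was above each line. The median over all tested genes of chromosome 19 was 0.47. DNA copy number was not analysed here.

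Over chromosomes, the share of genes above each line was highest on chromosome 21, with 18 of 139 (12.9%), then chromosome 5 (9.25%), chromosome 19 (8.72%) and chromosome 20 (7.11%), beside 4.69% of the 13709 placed genes. The median rescaled difference was 0.85 on chromosome 21 and 0.47 on chromosome 19. Below each line, chromosome 18 stood out with 16 of 198 genes (8.08%) beside 1.37% overall. Medians were -0.52 on chromosome 13, -0.50 on chromosome 4, -0.47 on chromosome 9 and -0.45 on chromosome 18. These shares are descriptions without a test, since neighbouring genes are not independent.

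**Figure D5:**
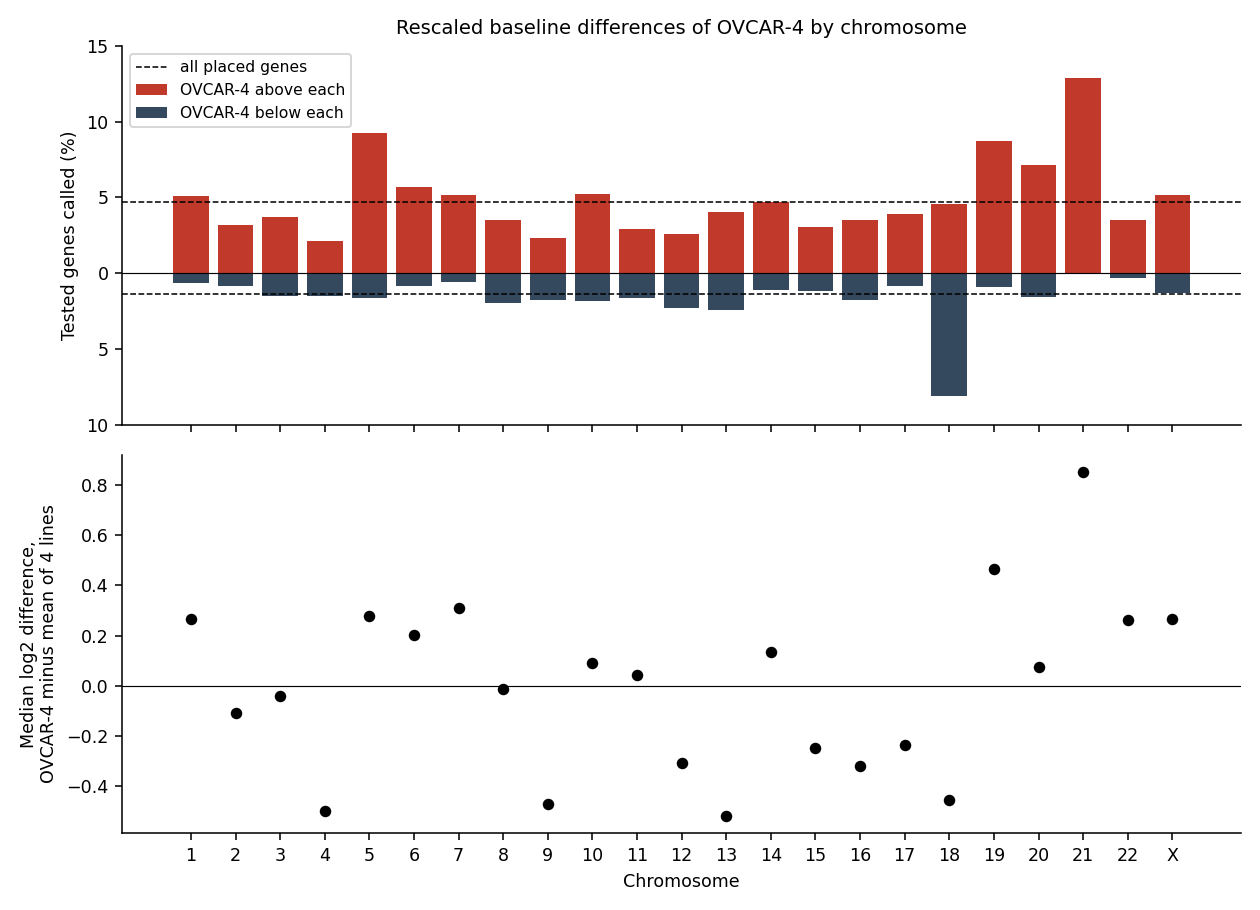
Upper panel: percent of tested genes on each chromosome above each (up) or below each (down) other line after rescaling, with dashed lines at the shares of all placed genes (4.69% and 1.37%). Lower panel: median rescaled log2 difference of OVCAR-4 from the mean of the 4 lines, where chromosome 21 is highest at 0.85 and chromosome 13 lowest at -0.52.

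Runs of at least 3 consecutive tested genes with the same call numbered 9 above and 3 below after rescaling. The kallikrein run was the longest, and its 7 genes passed the filter through OVCAR-4 alone. On chromosome 2 the interleukin-1 receptor genes IL1R2, IL1R1 and IL1RL2 (102608422 to 102856462) formed another, with IL1R1, the signalling receptor, at 133 and 131 RPKM against 0.0948 to 3.08. On chromosome 19, NLRP7, NLRP2, GP6, RDH13, EPS8L1 and PPP1R12C (55434877 to 55629005) formed a run of 6. ITGB2, the beta-2 integrin better known from leukocytes, measured 25.5 and 26.2 RPKM against 0 to 0.368 and stood with its antisense transcript on chromosome 21, whose reads cannot be told apart from it without strand. ADA, adenosine deaminase, opened a run on chromosome 20 with 197 and 195 RPKM against 1.86 to 10.3. Of the runs below, 1 on chromosome 12 held EFCAB4B, PARP11 and CCND2. On the deposited values 179 runs were above and 1 below.

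Signalling genes relevant to tankyrase were compared last. Tankyrases TNKS and TNKS2 ADP-ribosylate AXIN and angiomotin proteins, among others. TNKS measured 4.97 and 5.3 RPKM and TNKS2 22.6 and 23.4 in OVCAR-4, with rescaled differences from the mean of the lines of -0.59 and 0.13, neither of them 2-fold. AMOT was low in OVCAR-4 (0.412 and 0.508 RPKM) and in RKO (0.363 and 0.35), whereas AMOTL1 (29.4 and 31.6 RPKM) and AMOTL2 (222 and 227) were higher than the mean by 1.53 and 1.56. Of the 18 genes on the tankyrase list 4 were higher than the mean, beside 16.8% of all genes, with a list median of 0.20. Above each line were 2, beside 4.74% of all genes. They were the aminopeptidase LNPEP (28.6 and 30.6 RPKM) and GMDS, an enzyme of GDP-fucose synthesis (109 and 117 RPKM).

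Of 14 WNT/beta-catenin target genes tested, 2 were higher than the mean (LGR5 and NOTUM) and 7 lower, beside 16.8% and 10.6% of all genes. None was above or below each line, and LGR5 had passed the filter through OVCAR-4 alone. The list median was -1.02 after rescaling and -0.32 as deposited. As deposited, the list summed to 49.1 and 50.2 RPKM in OVCAR-4 but to 684 and 756 in COLO320DM. It summed to 40.1 and 46 RPKM in ABC-1 and to 26.8 to 27.8 in UO-31 and RKO. How far COLO320DM set the list median was not tested. AXIN2, a feedback target, was 7.48 and 7.98 RPKM in OVCAR-4, far under COLO320DM (116 and 134), slightly above ABC-1 as deposited (5.46 and 5.97) and below it after rescaling (-0.49 on the log2 scale), and above UO-31 and RKO. LEF1, a partner of beta-catenin, was 0.022 and 0 RPKM in OVCAR-4 against 0.309 to 63.4. Among 29 WNT ligands and receptors, WNT7A and RSPO4, a secreted WNT agonist with 8.61 and 8.14 RPKM, were above each line, beside 4.74% of all genes. Both had passed the filter through OVCAR-4 alone.

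Of the YAP/TEAD targets, 12 of 22 were higher than the mean and 2 lower, beside 16.8% and 10.6% of all genes. CYR61 and FOXF2 were above each line, beside 4.74% of all genes, and FOXF2 had passed the filter through OVCAR-4 alone. CYR61, a matricellular protein, measured 1771 and 1866 RPKM, with UO-31 next at 415 and 399. CTGF and ANKRD1, both classical targets, were close to UO-31, with rescaled log2 differences of -0.19 and 0.10 from it, the second with a limma adjusted p of 0.206. IGFBP3, which binds insulin-like growth factors, had 822 and 869 RPKM in OVCAR-4 and 603 and 632 in ABC-1, but its rescaled log2 difference was -0.52. The list median was 1.46 after rescaling, beside -0.0045 for all genes.

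In the BMP pathway, 9 of 26 genes were higher than the mean, 3 were lower and 3 were above each line, where 16.8%, 10.6% and 4.74% of all genes were called. The count of higher genes was 7 with equal sums of RPKM or quantile normalization. Above each line, beside the ligand BMP7, were GREM1, a secreted antagonist (27.3 and 28.1 RPKM against 0 to 5.38), and SMAD6, an inhibitory SMAD (34.7 and 33.8 RPKM against 0 to 6.32). BMP7 had passed the filter through OVCAR-4 alone. ID1 and ID4, direct targets, measured 612 and 638 RPKM and 88.8 and 97.2 RPKM. ABC-1 was next for both, with 189 and 181 and 36.1 and 34.6 RPKM.

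Homologous recombination genes were near the panel average, with a median of -0.05 over 32 genes (0.87 as deposited), 2 higher and 2 lower than the mean. Over all genes 16.8% were higher, 10.6% lower and 1.37% below each line. BRCA1 (5.07 and 4.78 RPKM against 5.59 to 10.6) and FANCF (2.86 and 2.84 against 3.27 to 6.68) were below each line after rescaling. They were lower by less than 2-fold, and not called, on the deposited values. Under quantile normalization 1 gene of the list was below each line, in place of 2. Of 39 receptor tyrosine kinases, EPHA1 (42.6 and 43.3 RPKM), ERBB4 (5.62 and 5.83) and CSF1R (1.17 and 1.34) were above each, beside 4.74% of all genes. Their number was 2 with equal sums of RPKM or quantile normalization. ERBB4 and CSF1R had passed the filter through OVCAR-4 alone, so their calls were favoured by their entry. Kidney genes gave 2 of 8 above each (CDH6 and the water channel AQP1) and 5 of 8 higher than the mean, beside 4.74% and 16.8% of all genes. Among the 5 were PAX8 and CDH16, and AQP1 had passed the filter through OVCAR-4 alone. The summed level as deposited was 205 to 206 RPKM against 107 to 108 in UO-31. The rescaling factors were 1.68 and 1.72 in OVCAR-4 and 0.957 and 0.94 in UO-31, so these sums do not share a scale. Above each line were also 1 of 7 colon genes (VIL1, 3.54 and 3.72 RPKM), 1 of 2 lung genes (SCGB1A1, 1.06 and 1.67) and 1 of 7 cancer-testis genes (MAGEC2, 3.29 and 3.56). VIL1, SCGB1A1 and MAGEC2 had all passed the filter through OVCAR-4 alone. Over all lists, 51 of 410 distinct genes tested were above each line (12.4%) and 5 were below. This share also holds members that entered through OVCAR-4 alone.

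The G007-LK libraries gave a second reading of the same lines. Compared with each other after the same rescaling, they placed 677 genes above and 200 below each other line. Of the 669 genes above in DMSO, 552 (82.5%) were above in G007-LK, and 149 of the 193 below (77.2%) were below. No gene changed side.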

How the data were processed

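Polyadenylated RNA was sequenced on an Illumina HiSeq instrument, and reads were aligned to hg19 with SOAPaligner/SOAP2. The authors deposited one value per gene and library in RPKM. Tables of the authors' own treatment comparisons (fold changes and p-values) were not used. Read counts were not used here, so no count model was fitted and counting error is unknown. The table held 21610 entries, of which 8 lacked a symbol and were left out (up to 0.00134% of a library's summed RPKM). Of the symbols, 371 stood on more than 1 entry, none of them with more than 1 value in a library. Their entries were joined, which left 21201 symbols. Missing values were taken as 0.

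RPKM + 0.5 was log2 transformed, which understates changes of low genes. Genes averaging 1 RPKM or more in any line, 14101 in all, were fitted with limma 3.58.1 (trend and robust, R 4.3.3, statmod 1.5.0) over the 10 DMSO libraries with 1 mean per line. Contrasts were OVCAR-4 minus the equally weighted mean of the 4 lines and OVCAR-4 minus each line, two-sided, with Benjamini-Hochberg adjustment over all genes tested. The design used the values as deposited. Because these were shifted in OVCAR-4, the same fit after median ratio rescaling is described first and the deposited counts are printed beside it. Rescaling assumes that the median gene is equal between lines. The scripts were tested on simulated data.

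Named genes were the 15 above and up to 15 below each line that lay farthest from the nearest line, called before and after rescaling, without overlap of libraries and with at least 10 RPKM in the higher line. Called members of the 25 lists, on or off genes and runs were added, up to 10 of a class by RPKM. Some genes that these rules select are not reported here, and they remain in the counts. MYC, CCND1 and the TNKS, AXIN and AMOT genes were also fixed. The members and lists were chosen with earlier results of these data known. Symbols were placed on GRCh37 by GENCODE positions, 18697 by symbol and 1392 by a RefSeq synonym, and 1112 were not placed. Whether counting used strand was not given.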

Additional observations from a re-analysis of the deposited data

How the results depend on the processing

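Scaling moved the counts of called genes. The genes above each line, 2464 as deposited, numbered 669 after median ratio rescaling, 622 with equal sums of RPKM and 592 after quantile normalization, and those below each line went from 51 to 193, 214 and 244. Against the mean, 6178 higher genes became 2375, 2206 and 2114, and 570 lower genes became 1501, 1686 and 1906. List members above each line went from 86 to 51, 50 and 48, and those below from 1 to 5 under all 3 scalings. Runs above went from 179 to 9 and runs below from 1 to 3 after median ratio rescaling. Of the 669 genes, 615 (91.9%) were also called with equal sums and 576 (86.1%) after quantile normalization. Which scaling is right was not tested, since no spike-in or count was used.

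The deposited count below each line was 89 with a pseudocount of 0.1 and 32 with 1. Leaving out a whole line gave 78 (COLO320DM), 143 (ABC-1), 87 (UO-31) and 102 (RKO), a rule with fewer lines to pass. Alternatives combined with rescaling were chosen after seeing the data. There, the 669 genes above became 1094 without ABC-1 and 1172 without UO-31. The 193 below became 291 with a pseudocount of 0.1, and 305, 426, 364 and 311 without COLO320DM, ABC-1, UO-31 and RKO.

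With on at 10 RPKM and off at 0.1 RPKM, 17 genes were on in OVCAR-4 alone instead of 85, 1 instead of 10 with COLO320DM, 8 instead of 51 with ABC-1, 13 instead of 81 with UO-31 and 0 instead of 3 with RKO, and 0 instead of 5 were off in OVCAR-4 alone. Rescaling gave 47 alone and 6 with COLO320DM.

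Leaving out each library in turn, which assumes that the lone library varies like the others, gave 2396 to 2546 genes above and 49 to 55 below each line (661 to 677 and 191 to 198 rescaled). Higher and lower genes numbered 6053 to 6289 and 556 to 583 (2368 to 2391 and 1474 to 1526 rescaled). The list members ranged from 85 to 90 above (49 to 52 rescaled) and runs above from 171 to 191 (9 to 11 rescaled). The class on in OVCAR-4 alone ranged from 85 to 89.

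Replicate numbers did not pair the libraries, since correlations of same-numbered deviations ran from -0.03 to 0.29 and 1 of 10 pairs exceeded 0.1. With the replicate block, 2458 genes were above and 52 below each line, and 6176 were higher and 569 lower than the mean (669, 194, 2373 and 1501 rescaled). Of the named genes, TMEM101 lost its call when the G007-LK libraries replaced the DMSO libraries, with a rescaled distance of -0.66, and the other named genes kept theirs under every alternative run.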
